A study of Homo sapiens with 14 samples.

Results

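The stretch described here is nt 411 to 700 of human 18S rRNA, which holds the shoulder of the small ribosomal subunit, the 530 loop and the start of the central domain. Its members were taken by position alone. All 290 nucleotides of the stretch had a score in every profile, out of 1833 scored nucleotides of 18S and 6867 scored nucleotides of 18S and 28S together. The other 1543 scored nucleotides of 18S served as the reference.

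HEK293 cells, a human embryonic kidney line that carries adenovirus 5 DNA, were exposed for 10 min to an acylating reagent, and ribosomal or polyadenylated RNA was then profiled. On ribosomal RNA the reagents were AcIm (acetylimidazole) at 100 mM, NAIN3 at 100 mM and AcIN3 at 200 mM, beside 10% DMSO, with 2 samples per group. For each of these reagents the files give 1 value per nucleotide, the R-score averaged by the authors over both replicates, which runs from 0 to 1. The DMSO group on ribosomal RNA and the polyadenylated RNA groups, which together make up the rest of the 14 samples, were not analysed here. AcIm transfers a small acetyl group, whereas NAIN3 transfers a bulkier aromatic nicotinoyl group that carries an azide. AcIN3 is named only as the labels give it, and its dose differed from those of the other reagents.

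In the folded small subunit the shoulder lies on the side where messenger RNA enters, next to the ribosomal proteins uS3 and uS4. The 530 loop is among the most conserved parts of the ribosome. During decoding one of its guanosines, nucleotide 530 in Escherichia coli and nt 626 in human 18S, contacts the paired codon and anticodon together with a pair of adenosines of the decoding centre. An acylating reagent reacts with the ribose 2′-hydroxyl, so a high R-score is taken as a sign of a flexible sugar that the reagent can reach.

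The authors' files pair each score with a nucleotide number and no base. The profile is 1869 nt long, as are the 5 annotated 18S genes of GRCh38.p14, RNA18SN1 to RNA18SN5. RNA18SN1 spans positions 8436876 to 8438744 of chromosome 21, RNA18SN2 spans 8209631 to 8211499 and RNA18SN3 spans 8392666 to 8394534 of the same chromosome. RNA18SN4 is listed under chromosome 22 and RNA18SN5 under an unknown chromosome, both on sequences without a place in a chromosome's main assembly. Each locus encodes a structural RNA with no coding region or UTR, and the profile does not separate the copies. Because the values are means, no test against the spread between replicates was possible, and read depth is unknown. Where a mean was exactly 0 or exactly 1, both replicates must have stood at that limit if each lay between 0 and 1. Intervals below are 95% intervals over nucleotides, which are neither replicates nor independent of their neighbours.

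The shoulder and 530 loop were about as reactive as the rest of 18S with AcIm and NAIN3, and had higher typical scores with AcIN3. The median R-score of the members was 0.0795 for AcIm (order-statistic interval 0.0695 to 0.101), against 0.0770 (0.0700 to 0.0815) over the other 18S nucleotides. For NAIN3 it was 0.0250 (0.0200 to 0.0290) against 0.0215 (0.0195 to 0.0230). For AcIN3 it was 0.141 (0.123 to 0.157) against 0.113 (0.105 to 0.122). These intervals narrowly missed each other, but they leave out the spread between replicates, so the difference was not tested. The members' mean percentile rank within 18S, where ties share a rank, was 51.5 for AcIm, 52.0 for NAIN3 and 55.4 for AcIN3.

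For AcIN3 and NAIN3 both neighbouring stretches had lower medians, and for AcIm one was lower and one higher. In nt 7 to 410 (404 nt) the medians were 0.0673 (AcIm), 0.10 (AcIN3) and 0.0135 (NAIN3). In nt 701 to 910 (210 nt) they were 0.102, 0.114 and 0.0175. NAIN3 scores were at 0 for 20 members (6.90%, Clopper-Pearson interval 4.26 to 10.5%), where 8.67% of all 18S nucleotides were at 0. In nt 7 to 410 the share was 21.3% (17.4 to 25.6%) and in nt 701 to 910 it was 11.0%. AcIm was at 0 for 2 members (background 0.764%) and AcIN3 for 6 (background 3.27%).

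**Figure D1:**
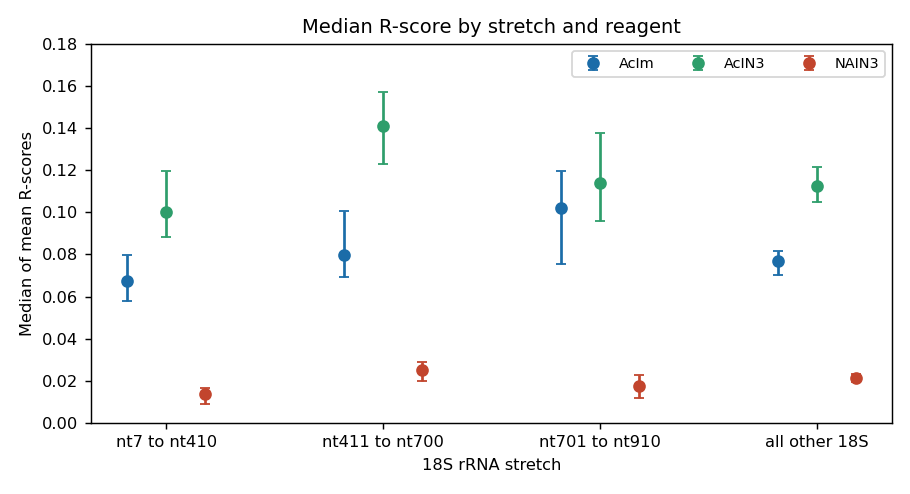
Median of the mean R-scores (vertical axis, no unit) in the stretch nt 411 to 700, its neighbours and all other 18S nucleotides, by reagent. Bars are 95% order-statistic intervals over nucleotides. The AcIN3 median of 0.141 in nt 411 to 700 lies above that of the other 18S nucleotides, and the NAIN3 medians lie lowest in every stretch.

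AcIN3 gave higher scores than AcIm at most members, at the higher dose. AcIN3 exceeded AcIm at 248 of 290 members (85.5%), against 73.6% of the other 18S nucleotides. The median ratio of the scores, AcIN3 over AcIm, was 1.67 across the 288 members with an AcIm score above 0 and 1.31 across the other 18S nucleotides. It was 1.31 in nt 7 to 410 and 1.13 in nt 701 to 910. Within the stretch this ratio fell to 1.33 in nt 511 to 560, where AcIN3 exceeded AcIm at 34 of 50 nucleotides. In the other blocks of 50 nt, the last of them 40 nt long, it lay between 1.53 and 1.80. Because the doses differed, these ratios describe the profiles and do not compare the reagents.

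NAIN3 scores were concentrated in few nucleotides. The 10 highest NAIN3 scores of the stretch made up 39.5% of its summed score, against 20.2% for AcIm and 15.6% for AcIN3. An equal share of nucleotides elsewhere in 18S (the 53 highest) made up 37.6%, 18.8% and 15.8%, so this feature was as marked outside the stretch. AcIm exceeded NAIN3 at 252 members (86.9%, against 88.7% of the other 18S nucleotides) and NAIN3 exceeded AcIm at 33 (11.4% against 10.4%).

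**Figure D2:**
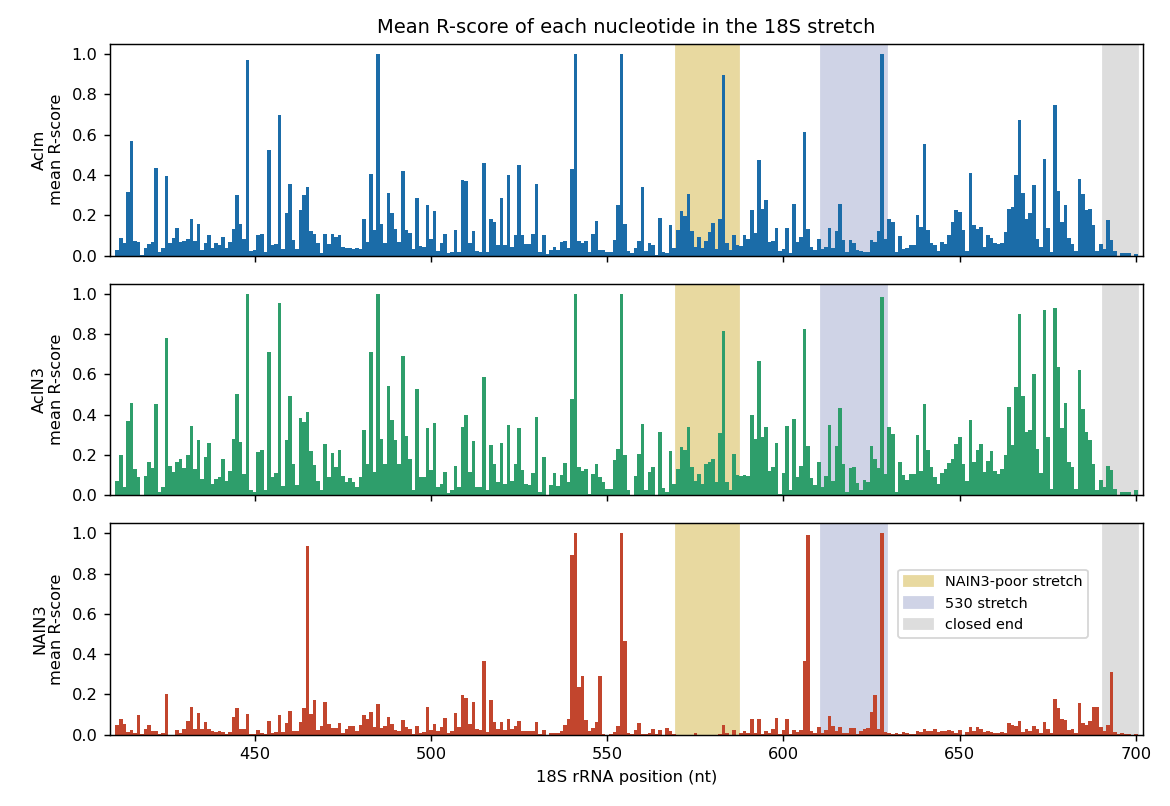
Mean R-score (vertical axes, 0 to 1) of every nucleotide from nt 411 to 700 of 18S (horizontal axis, nt), with 1 panel per reagent. Shading marks the NAIN3-poor stretch nt 570 to 587, the conserved 530 stretch nt 611 to 629 and the closed end nt 691 to 700. All 3 profiles peak at nt 541, 554 and 628, and the NAIN3 panel is nearly empty over nt 570 to 587.

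Highly reactive nucleotides were about as frequent as in 18S as a whole. They were defined as the 10% with the highest scores of 18S, which is 183 nucleotides per reagent (9.98% of those scored). The lowest score in this class was 0.360 for AcIm, 0.440 for AcIN3 and 0.139 for NAIN3. Of the members, 28 belonged to it with AcIm (9.66%, 6.51 to 13.7%), 31 with AcIN3 (10.7%, 7.38 to 14.8%) and 26 with NAIN3 (8.97%, 5.94 to 12.9%). In total 50 members were in the class with at least 1 reagent (17.2%, background 17.7%).

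The members most open to every reagent were 10 nucleotides in the top class of all 3 (3.45%, background 3.60%). Nt 541 and nt 554 scored 1 with AcIm, AcIN3 and NAIN3, so all replicates stood at the upper limit there. Such nucleotides numbered 7 in 18S (0.382%), of which these are 2. Nt 628, which lies 2 nt past nt 626 in the 530 loop, scored 1 with AcIm, 0.982 with AcIN3 and 1 with NAIN3. No DMSO profile was used here, so stops without reagent at these sites were not examined.

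Nt 540, the neighbour of nt 541, scored 0.431 with AcIm, 0.478 with AcIN3 and 0.891 with NAIN3. Nt 606, a few nucleotides before the conserved 530 stretch, scored 0.615, 0.823 and 0.365 in the same order. Nt 515 scored 0.458, 0.588 and 0.368. These last 3 nucleotides thus differed in order, with NAIN3 highest at nt 540 and AcIN3 highest at nt 606 and nt 515.

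Nt 485 scored 1 with AcIm, 1 with AcIN3 and 0.152 with NAIN3. At nt 677 the scores were 0.747, 0.927 and 0.177, at nt 425 they were 0.397, 0.780 and 0.204, and at nt 684 they were 0.382, 0.619 and 0.158. All 4 were highly reactive with NAIN3 by rank, at ranks from 90.7 to 93.3, although their NAIN3 scores were low on the scale from 0 to 1.

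Between reagents the AcIm and AcIN3 profiles ran together across the members, and NAIN3 departed from both. Spearman's rho across the 290 members was 0.95 between AcIm and AcIN3, 0.52 between AcIm and NAIN3 and 0.56 between AcIN3 and NAIN3. Over the other 1543 nucleotides these were 0.95, 0.59 and 0.58. In nt 7 to 410 they were 0.93, 0.45 and 0.41, and in nt 701 to 910 they were 0.95, 0.45 and 0.44. Correlations across nucleotides are descriptions, since the points share libraries, and the place of a nucleotide in the rRNA affects all reagents.

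The top classes of AcIm and AcIN3 shared 23 members (82.1% of AcIm's and 74.2% of AcIN3's, background 7.91% of nucleotides against 7.93% of members). AcIm and NAIN3 shared 12 (42.9% and 46.2%, background 3.87% against 4.14%). AcIN3 and NAIN3 shared 10 (32.3% and 38.5%, background 4.09% against 3.45%). As shares of the 290 members, these counts lay near those for 18S as a whole. As shares of each top class, the values over all 18S were 79.2% (AcIm and AcIN3), 38.8% (AcIm and NAIN3) and 41.0% (AcIN3 and NAIN3). The members lay above this for AcIm and NAIN3 and below it for AcIN3 and NAIN3. With 12 and 10 shared members, these differences are not read as a trait of the stretch.

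Agreement between AcIm and NAIN3 varied along the stretch. In blocks of 50 nt their rho was 0.59 in nt 411 to 460, 0.69 in nt 461 to 510 and 0.67 in nt 511 to 560. It was 0.27 in nt 561 to 610 and 0.25 in nt 611 to 660, and 0.72 in the last 40 nt. AcIm and AcIN3 stayed between 0.92 and 0.98 in every block. In the blocks from nt 561 to 660 NAIN3 had mean ranks of 34.1 and 45.3, where AcIm had means of 51.7 and 50. In windows of 10 nt low agreement and low NAIN3 ranks did not always coincide. The rho was -0.41 at nt 571 to 580, where the mean NAIN3 rank was 6.21. It was 0.75 at nt 581 to 590 (rank 28.2) and 0.10 at nt 621 to 630 (rank 59.5). A link between them was not tested.

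The clearest separation of the reagents lay at nt 570 to 587, a stretch delimited after its values were seen. NAIN3 was at 0 for 13 of these 18 nucleotides, which is 13 of the 20 members at 0, and its highest score there was 0.0470. AcIm scored from 0.0290 to 0.899 (median 0.110) and AcIN3 from 0.0255 to 0.815 (median 0.149), and both exceeded NAIN3 at all 18 nucleotides. The mean ranks were 57.1 for AcIm, 56.2 for AcIN3 and 13.5 for NAIN3.

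Nucleotide by nucleotide, the 4 positions from nt 571 to nt 574 scored 0.224, 0.197, 0.308 and 0.124 with AcIm, and 0.237, 0.227, 0.336 and 0.141 with AcIN3. NAIN3 was listed at 0 at all 4, so both of its replicates were at 0 there. Nt 583 was the peak of the stretch with every reagent, AcIm reaching 0.899, AcIN3 0.815 and NAIN3 0.0470. It was also the only one of the 18 in the top class of AcIm or AcIN3. AcIm and AcIN3 followed each other within these 18 nucleotides, with a rho of 0.93.

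Among all 1824 windows of 10 nt in 18S, 9 had a lower mean NAIN3 rank than nt 570 to 579 (6.21). Only 7 had a wider lead of AcIm over NAIN3 than nt 571 to 580, where the mean ranks were 60.7 and 6.21. These windows overlap one another. Runs of NAIN3 ranks below 25 reached 14 nt at nt 569 to 582, and 3 runs in 18S, this one included, were at least that long, the longest being 22 nt at nt 109 to 130. NAIN3-poor stretches of this kind were thus present elsewhere in 18S too. Above rank 50 with AcIm and below rank 25 with NAIN3 were 15 members (5.17%, background 6.22%), 9 of them at nt 570 to 587. Without nt 570 to 587 the rho of AcIm and NAIN3 across the other 272 members was 0.59 in place of 0.52.

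**Figure D3:**
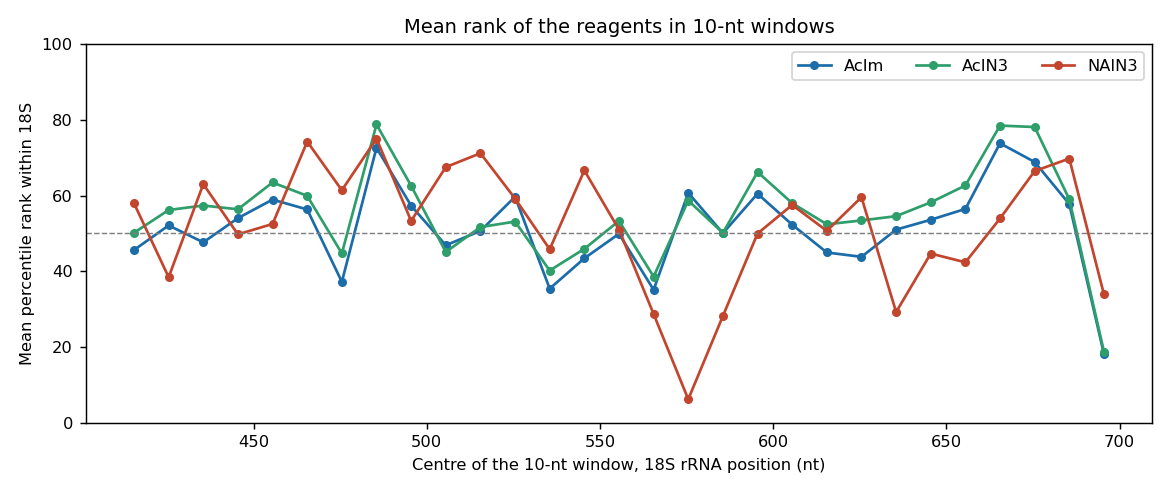
Mean percentile rank within 18S (vertical axis, 0 to 100) in consecutive 10-nt windows of nt 411 to 700 (horizontal axis, nt), by reagent. The dashed line is rank 50. NAIN3 drops to 6.21 at nt 571 to 580 while AcIm and AcIN3 stay near 60, and all 3 are low at nt 691 to 700.

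The converse, NAIN3 high beside a modest AcIm, was found around nt 539 to 548. There NAIN3 had a mean rank of 82.9, AcIm 52.2 and AcIN3 53.4. Of all 1824 windows, 3 had a wider lead of NAIN3 over AcIm, and 11 had a higher NAIN3 rank. From nt 539 to nt 543 NAIN3 scored 0.0765, 0.891, 1, 0.236 and 0.291, and AcIm scored 0.0370, 0.431, 1, 0.0745 and 0.0615. Nt 548 scored 0.293 with NAIN3 and 0.0280 with AcIm. NAIN3 was the higher at all of these except nt 541, where both were at the limit. In the rest of the window, NAIN3 and AcIm were nearly equal at nt 544 (0.0740 and 0.0725) and equal at nt 545 (0.0200). AcIm was the higher at nt 546 (0.106 against 0.0320) and nt 547 (0.174 against 0.0635).

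A strict class, called opposed, held nucleotides that ranked among the top 10% with one reagent but below rank 50 with another. High with AcIm and low with NAIN3 was only nt 422 (0.345%, background 1.31%), at 0.433 against 0.0195. AcIN3 was high at the same nucleotide, with 0.451. Also opposed between AcIN3 and NAIN3 was nt 668, at 0.492 against 0.0140, so 2 members fell in that class (0.690%, background 1.31%).

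High with NAIN3 and low with AcIm were 5 members (1.72%, 0.562 to 3.98%, background 1.20%). They were nt 548 (0.293 against 0.0280), nt 689 (0.139 against 0.0245), nt 543 (0.291 against 0.0615), nt 626 (0.195 against 0.0670) and nt 542 (0.236 against 0.0745). Nt 548 and nt 689 were also opposed between NAIN3 and AcIN3 (0.690%, background 1.36%), with AcIN3 at 0.0920 and 0.0255. The NAIN3 score of nt 689 lay on the limit of the top class.

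**Figure D4:**
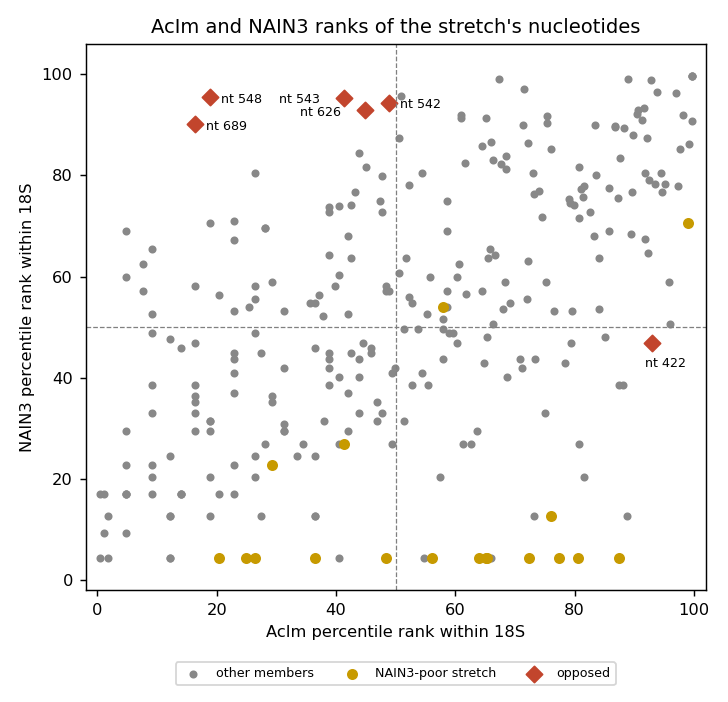
Percentile rank of each of the 290 members with AcIm (horizontal axis) and NAIN3 (vertical axis), both within 18S, with dashed lines at rank 50. Diamonds are the 6 opposed members, and gold points are nt 570 to 587, most of which lie along the bottom where NAIN3 is at 0.

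For the largest differences the means alone fix the order of the replicates. If each replicate lies between 0 and 1, a mean m places both replicates of the pair no lower than 2m − 1 and no higher than 2m. Neither AcIm replicate can then have been as low as either NAIN3 replicate at 8 members (2.76%, background 2.45%), namely nt 415, 448, 457, 485, 583, 640, 667 and 677. At nt 583 no AcIm replicate can have been below 0.797 and no NAIN3 replicate above 0.0940. The mean scores of nt 448 were 0.969 (AcIm), 1 (AcIN3) and 0.105 (NAIN3). Its limits were 0.938 and 0.210, and at nt 640 they were 0.110 and 0.0620. By rank within each reagent these 8 differed less, since their NAIN3 ranks ran from 50.6 to 92.0. The bound needs a mean above 0.5, which 13 members met with AcIm (4.48%, other 18S nucleotides 5.06%), 24 with AcIN3 (8.28%, others 6.80%) and 6 with NAIN3 (2.07%, others 2.85%).

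Both NAIN3 replicates exceeded both AcIm replicates at nt 465 and nt 607 (0.690%, background 1.04%). Nt 607 scored 0.993 with NAIN3, against 0.134 for AcIm and 0.243 for AcIN3, right after nt 606, which was in the top class of all reagents. Nt 465 scored 0.936, 0.340 and 0.413 in the same order. The same nucleotides exceeded AcIN3 by the bound (0.690%, background 0.927%). AcIN3 exceeded NAIN3 by it at 14 members (4.83%, 2.66 to 7.97%, background 3.44%), which include all those of AcIm except nt 415 and nt 640. Nt 674 was among them, at 0.921 with AcIN3, 0.479 with AcIm and 0.0630 with NAIN3. None of the opposed members met the bound, so at each of those the difference could rest on 1 replicate.

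In the 530 loop, the guanosine that takes part in decoding ranked higher with NAIN3 than with AcIm or AcIN3, if its position is right to the nucleotide. That position was taken from general knowledge and not checked against a sequence. The NAIN3 score of nt 626 was 0.195 (rank 92.9), its AcIm score 0.0670 (44.8) and its AcIN3 score 0.181 (65.9). In the same order, the preceding nt 625 scored 0.112, 0.0780 and 0.246 and the following nt 627 scored 0.0295, 0.122 and 0.135, so NAIN3 was not the highest on either side. From nt 622 to 624 AcIm scores stayed between 0.0155 and 0.0245, and NAIN3 scores between 0.0195 and 0.0350. There too NAIN3 had the highest rank of the reagents, from 46.8 to 62.5, so its lead by rank was not particular to nt 626.

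The conserved stretch nt 611 to 629, counted from nt 626, had mean ranks of 42.8 (AcIm), 51.3 (AcIN3) and 56.3 (NAIN3), with medians of 0.0670, 0.135 and 0.0295. Its highest nucleotide after nt 628 was nt 616 with AcIm and AcIN3 (0.257 and 0.432), where NAIN3 scored 0.0365. By rank NAIN3 was here the highest reagent and AcIm the lowest, but widened by 5 nt on each side the stretch had mean ranks of 45.5 (AcIm), 53.6 (AcIN3) and 52.8 (NAIN3), which puts AcIN3 first. Nt 631 to 640 followed with a mean NAIN3 rank of 29.2, against 51.0 for AcIm.

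By mean rank, AcIm was highest toward the start of the central domain, where AcIN3 also ranked high. Over nt 663 to 672 the mean ranks were 80.1 (AcIm), 85.3 (AcIN3) and 59.2 (NAIN3), and 8 of the 1824 windows had a higher AcIm rank. Of the consecutive windows, nt 671 to 680 held the most highly reactive nucleotides summed over the reagents. They were 2 for AcIm, as in several other windows, 5 for AcIN3 and 1 for NAIN3. Nt 667 scored 0.675, 0.897 and 0.0665 with AcIm, AcIN3 and NAIN3, and nt 671 scored 0.352, 0.60 and 0.0435. Second to this window were nt 481 to 490, where all reagents ranked high (72.6, 78.8 and 75), and nt 541 to 550, where 4 of the 6 calls were NAIN3's.

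The stretch ended in a closed segment. Over nt 691 to 700 the mean ranks were 18.2 (AcIm), 18.8 (AcIN3) and 33.9 (NAIN3), and 18 of the 1824 windows had a lower AcIm rank. Nt 699 was listed at 0 with all 3 reagents, the only such member. Nt 693 stood out with NAIN3, at 0.312 against 0.0790 with AcIm and 0.123 with AcIN3. From nt 694 on every nucleotide was below rank 50 with every reagent, and this run went on past the stretch to nt 704. At 11 nt it was the longest such run in 18S. The windows nt 561 to 570 and nt 531 to 540 were next lowest, with AcIm ranks of 35.1 and 35.4. In all, 79 members were below rank 50 with every reagent (27.2%, 22.2 to 32.8%, background 34.0%) and 101 were above it (34.8%, background 33.9%).

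Ribose-methylated nucleotides lack the free 2′-hydroxyl that acylation needs, and 16 such sites are listed for the stretch. Against the other members their median was higher with AcIm, lower with AcIN3 and equal with NAIN3. The median over the 16 sites was 0.108 for AcIm, 0.125 for AcIN3 and 0.0250 for NAIN3, against 0.0780, 0.141 and 0.0250 over the other 274 members. With AcIm 10 of the 16 were above rank 50, with AcIN3 8 and with NAIN3 9. Their mean ranks were near those of the other members, at 53.3 against 51.4 (AcIm), 54.3 against 55.4 (AcIN3) and 54.1 against 51.9 (NAIN3). With the positions moved by 1 nt to the 5′ side, the AcIm median was the lower (0.0620 against 0.0810). Moved to the 3′ side, the AcIN3 median was the higher (0.219 against 0.139). With 16 sites, these directions are not read as a trait of the sites. The positions come from general knowledge of the human rRNA and were not checked against a sequence.

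The ribose-methylated sites differed widely among themselves. Nt 509 scored 0.374 with AcIm, 0.341 with AcIN3 and 0.195 with NAIN3. Its rank was 84.2 or more with each. Nt 512 and nt 517 were in NAIN3's top class, at 0.165 and 0.171, with AcIm at 0.124 and 0.181. Nt 668, described above as opposed, is also in the list. At the other end, nt 683 scored 0.0245, 0.0325 and 0.00900, nt 644 scored 0.0245, 0.0565 and 0.0120, and nt 621 scored 0.0280, 0.0590 and 0.00550 with AcIm, AcIN3 and NAIN3. The listed sites nt 428, 436, 462, 468, 484, 576, 590, 601 and 627 lay between ranks 4.36 and 84.3, the lowest being nt 576 with NAIN3, inside the NAIN3-poor stretch.

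Pseudouridine keeps its 2′-hydroxyl, and 7 such sites are listed. With AcIm 5 of 7 were above rank 50, with AcIN3 also 5, and with NAIN3 1. Their median score was 0.130 with AcIm, 0.163 with AcIN3 and 0.00850 with NAIN3, where the other 283 members had 0.0780, 0.140 and 0.0250. Nt 572 scored 0.197, 0.227 and 0, and nt 651 scored 0.130, 0.156 and 0. Nt 649 scored 0.226, 0.256 and 0.00850, and nt 686, the highest site with NAIN3, scored 0.226, 0.314 and 0.0490. Nt 681 scored 0.0855, 0.163 and 0.0215, and nt 609 scored 0.0280, 0.0490 and 0.00900. Nt 418 was low with every reagent, at 0.00450, 0 and 0.00500. Moving the listed positions by 1 nt to the 5′ or the 3′ side put 4 and 5 of the 7 above rank 50 with NAIN3, so the low NAIN3 count holds for these exact positions only. With 7 sites, 1 of them in the NAIN3-poor stretch, this is a description of these sites only.

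**Figure D5:**
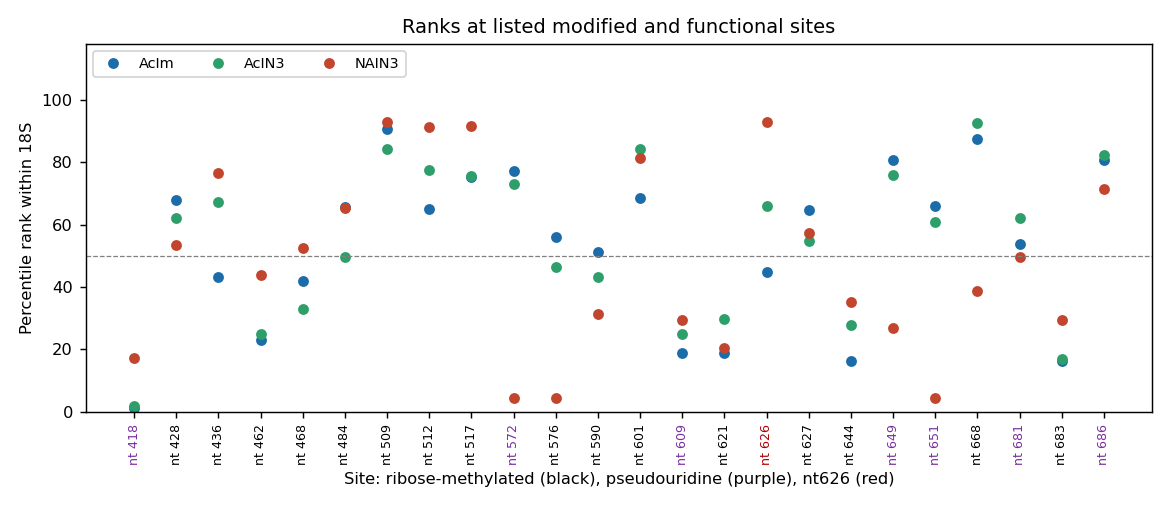
Percentile rank within 18S (vertical axis) at each listed site of the stretch (horizontal axis, in order of position), by reagent. Nt 626 has NAIN3 well above AcIm, and 5 of 7 pseudouridine sites have AcIm above rank 50 while 1 has NAIN3 above it.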

How the data were processed

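The authors deposited a mean R-score per nucleotide of 18S and 28S rRNA for AcIm, AcIN3 and NAIN3, a score from 0 to 1 in steps of 0.0005, per the file headers and values. Bowtie2 and GRCh38 are named in the submitters' processing notes. As to versions, the formula of the score, the use of the DMSO background and any depth filter, nothing is stated (not given in the sources used here). A score set against DMSO loses order at 0 and 1, and averaging removes the replicate spread. The labels call the replicates biological.

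From the 18S scores, percentile ranks (ties averaged) and the top 10% (ties ordered by position) were taken over all scored 18S nucleotides, so that no call depended on the stretch. Windows of 10 nt and blocks of 50 nt started at nt 411. Medians have order-statistic intervals and shares Clopper-Pearson 95% intervals, which cover counting over nucleotides only. No p-value was computed. Nucleotides named were members in all 3 top classes, the 5 highest scores per reagent, opposed members, those that met the replicate bound, listed sites, members at 0 in all reagents, the longest runs and the 3 densest and sparsest windows. Others, such as the neighbours of these, nt 570 to 587 and the windows at nt 539 and nt 663, were picked after their values were seen. The members and lists were chosen with earlier results of these data known. The procedures were tested on simulated data. No 18S sequence was used here, so bases and base pairing were not examined. Computation used scipy 1.17.1, pandas 2.3.3 and numpy 2.4.6 under Python 3.11.15, and figures matplotlib 3.10.9. Alternatives were other limits, borders and registers, Pearson's r and nucleotides left out.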

Additional observations from a re-analysis of the deposited data

How the results depend on the processing

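No paired analysis was possible because only means over the replicates were used. Of 134 values recomputed under alternatives, 81 stayed near the main value and 53 moved. Near meant within the interval, within 1.5 times the count or, for mean ranks, within the standard error. Scores at the decoding guanosine are single values without an interval, and all of those recomputed were counted as moved. Only correlations could change sign, and no correlation did. Medians, counts, mean ranks and scores cannot be negative, so their sign was not a test. The medians of the members stayed within their intervals under every alternative run for them. The mean ranks of the 530 stretch moved by less than their standard error over its nucleotides, but widening it by 5 nt on each side put AcIN3 (53.6) above NAIN3 (52.8). With the top 5% the members in the top class were 13 (AcIm), 20 (AcIN3) and 12 (NAIN3), and with the top 20% they were 58, 66 and 55. Shared members of AcIm and NAIN3, AcIN3 and NAIN3, and AcIm and AcIN3 were 4, 5 and 11 with the top 5%, and 26, 31 and 51 with the top 20%. Opposed members are given in the order AcIm over NAIN3, NAIN3 over AcIm, AcIN3 over NAIN3 and NAIN3 over AcIN3. They were 0, 2, 0 and 1 with the top 5%, 9, 8, 11 and 5 with the top 20%, and 0, 2, 0 and 1 with the lowest 25% as the low class. In the stretch shortened by 20 nt at each border AcIm over NAIN3 gave 0, AcIN3 over NAIN3 gave 1 and NAIN3 over AcIN3 gave 1, and in the widened stretch AcIm over NAIN3 gave 2. With few opposed members, these counts depend on the limits.

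Pearson's r between AcIN3 and NAIN3 was 0.47. With the NAIN3 profile moved by 1 nt in the 3′ direction, rho fell to 0.0622 with AcIm and 0.0630 with AcIN3, the shared members were 2 and 2, and the opposed counts were 13, 15, 14 and 11. Moved in the 5′ direction, rho was 0.0261 and 0.0176, the shared members 5 and 4, and the opposed counts 14, 10, 15 and 10. In alternatives added after the data were seen, 7 members were at 0 with NAIN3 once nt 570 to 587 were left out, and without nucleotides at 1 in any reagent AcIN3 and NAIN3 shared 6 members. For nt 626 a shift of the listed position changed the order of the reagents by score. NAIN3 scored 0.0295 on the 3′ side and 0.112 on the 5′ side, AcIm 0.122 and 0.0780, and AcIN3 0.135 and 0.246. Read depth is unknown, so it could not be used to weigh any score.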

Other observations

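The nucleotides next to the listed ribose-methylated sites were also examined. On the 3′ side of the 16 sites the median AcIm score was 0.135, the AcIN3 score 0.219 and the NAIN3 score 0.0380, and 4, 3 and 4 of them were in the top classes. The other 274 members had medians of 0.0785, 0.139 and 0.0245, and 9.98% of all 18S nucleotides are in each top class. On the 5′ side the medians were 0.0620, 0.114 and 0.0293, against 0.0810, 0.146 and 0.0245 over the other members. Of these 5′ neighbours 2 were in each top class. The 3′ neighbours include nt 485 and nt 628, at or near 1 with AcIm and AcIN3. They also include nt 510, at 0.372 (AcIm), 0.397 (AcIN3) and 0.183 (NAIN3). Their lowest AcIm score was 0.0125, at nt 469 and nt 602. Above rank 50 were 9 (AcIm), 10 (AcIN3) and 11 (NAIN3) of the 16.

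NAIN3's top nucleotides that were not in AcIm's top class numbered 14 in the stretch, and 3 of these lay 1 nt 3′ of a member of AcIm's top class. These are nt 542, nt 555 and nt 607. Elsewhere in 18S 21 of 98 did so. Across members, the NAIN3 score 1 nt further 3′ had a rho of 0.03 with AcIm, against 0.52 at the same nucleotide.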
